A study of Mus musculus with 6 samples.

Results

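The genes that encode the subunits of the mitochondrial respiratory chain and of ATP synthase were followed in the uteri of Arid1a d/d and Arid1a f/f mice at 3.5 dpc (days post coitum), shortly before the embryo attaches. They were chosen by symbol in the platform annotation, on probe sets that name 1 gene, as those beginning with Nduf and then a, b, c, s or v, with Sdha to Sdhd, and as those beginning with Uqcr, with Cox4 to Cox8 or with Atp5. This gave 90 genes of 18193 named on the arrays, and each gene was read off its brightest probe set over the 6 arrays. They were 36 subunits of complex I, 4 of complex II, 8 of complex III, 17 of complex IV and 17 of complex V. The same symbols also picked up 8 Ndufaf genes, which encode factors that assemble complex I and are not part of the finished enzyme, so these were kept as a group of their own. In Arid1a d/d mice (Pgr cre/+ Arid1a f/f), Cre recombinase made from the Pgr locus deletes the floxed Arid1a alleles in cells that express the progesterone receptor, and other uterine cells keep the gene. Arid1a f/f mice carry the same floxed alleles with no Cre, so the genotypes are not alike at Pgr either. Females of both genotypes had been mated with C57BL/6 males, and RNA of the whole uterus went onto Affymetrix mouse expression arrays, 3 for each genotype. The sources used here do not give the age of these females. The labels do not say that each array came from its own mouse, so the p-values reflect the spread from sample to sample, which may be technical. Arid1a itself, a gene of the SWI/SNF chromatin remodelers, was lower in Arid1a d/d uteri, with a log2 difference of -0.76 (SE 0.12, adjusted p = 0.0120, limma).

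The respiratory chain sits in the inner mitochondrial membrane. Complex I takes electrons from NADH and complex II from succinate, ubiquinone carries them to complex III, cytochrome c carries them on to complex IV, and complex IV hands them to oxygen. Complexes I, III and IV pump protons as they work, and complex V, the ATP synthase, uses the returning protons to make ATP. Most subunits are encoded in the nucleus and imported, while a few core subunits are encoded by mitochondrial DNA. The epithelium, stroma and muscle of the uterus all carry these enzymes. Several complex IV subunits come as a widely expressed form and as a form found mainly in muscle, lung or testis.

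Levels are given as deposited RMA intensity on a linear scale, and every difference is the mean log2 intensity in Arid1a d/d uteri minus that in Arid1a f/f uteri. The median intensity over all probe sets was 3.12, and the table holds no detection calls. Array medians were close, at 3.05 to 3.17 in Arid1a d/d and 3.10 to 3.15 in Arid1a f/f. Array means, to which bright probe sets add most, were 32.59 to 33.25 in Arid1a d/d and 31.97 to 32.49 in Arid1a f/f. Every Arid1a d/d array thus had a slightly higher mean than every Arid1a f/f array. One array stood apart for the respiratory chain genes. Arid1a f/f replicate 2 was the lowest of the 6 arrays for 46 of the 90 members (51.1%), while it was the lowest for 16.9% of all genes. That array was also the lowest for some mitochondrial genes outside the members, such as Mrpl12 and Hspd1, though not for Timm23. How often this held among such genes was not counted.

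Respiratory chain genes had a median slightly above that of all genes in Arid1a d/d uteri, and their differences were small and seldom passed the test one gene at a time. The median log2 difference over the 90 members was 0.15, a 1.11-fold difference, against -0.02 over all genes. Most members were brighter than the median of all probe sets, and the set of all genes was not matched to them for intensity. Whether bright genes in general had a like shift was not tested. A value above 0 was found for 65 members (72.2%), against 46.5% of all genes. In limma, with p-values adjusted by Benjamini-Hochberg across the whole table, 6 members were higher at an adjusted p under 0.05 and 0 were lower. That is 6.67% of the members higher, against 3.37% of all genes higher and 4.06% lower, or 7.43% in either direction. At an unadjusted p under 0.05 the counts were 25 members higher and 5 lower, where all genes gave 11.4% higher and 13.5% lower. For 37 members every Arid1a d/d array lay above every Arid1a f/f array (13.4% of all genes did so), for 9 members every one lay below (16.0% of all genes), and 44 overlapped. The 6 that passed were Ndufb6 and Ndufc2 of complex I, Cox5a of complex IV and the assembly factors Ndufaf2, Ndufaf4 and Ndufaf5. Among the 82 members other than the Ndufaf genes, 3 were higher and 0 lower, with a median of 0.13. The brightest probe sets of Ndufb6, Ndufc2, Cox5a and Ndufaf5 are of kinds able to detect several transcripts, and with all such probe sets left out 72 members remained, of which 2 (Ndufaf4 and Uqcrb) were higher, with a median of 0.07. Without Arid1a f/f replicate 2 the median over the 90 members was 0.09 and 0 members passed. Leaving out Arid1a d/d replicate 2 or 3 left 2 members higher, leaving out Arid1a f/f replicate 1 or 3 left 1, and leaving out Arid1a d/d replicate 1 left 5 higher and 1 lower. The share of all genes passing in these fits is not given here, so a loss particular to the members cannot be read from them. Of 13 proliferation markers, 11 passed over all arrays and 0 without Arid1a f/f replicate 2.

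**Figure D1:**
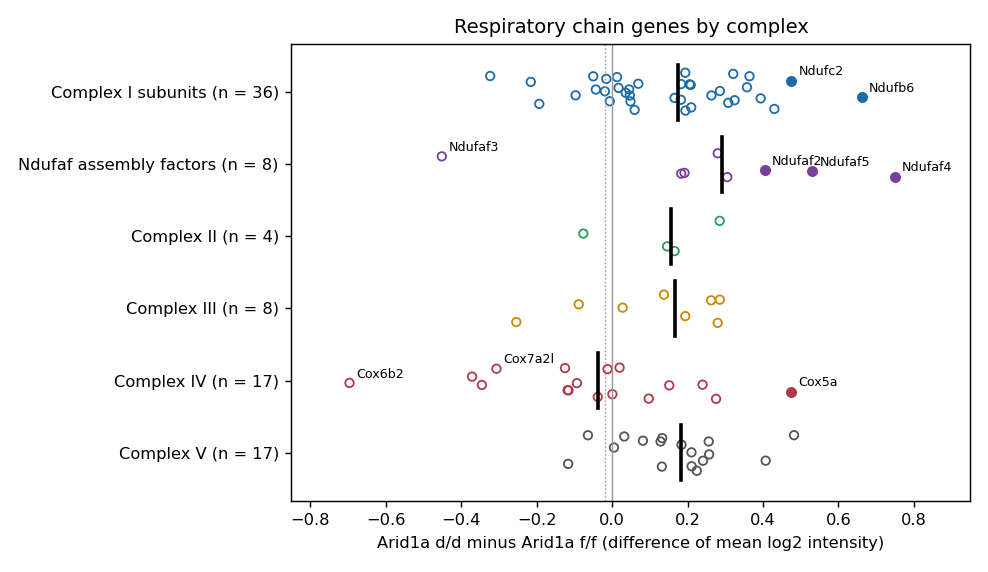
Each circle is 1 gene, placed by its difference between genotypes (Arid1a d/d minus Arid1a f/f, log2 intensity) within its complex. Filled circles passed limma at an adjusted p under 0.05, a black bar marks each group's median and the dotted line the median of all genes. The medians of 5 of the 6 groups lie right of 0, while that of complex IV lies at -0.04. Without its mostly dim tissue-restricted forms, complex IV had a median of 0.05, with Cox7c, also dim, still counted.

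Complex IV had the lowest median of the 5 enzymes, and it lay below 0 only with its mostly dim tissue-restricted forms counted. Without those forms, its median over 10 genes was 0.05. These 10 still include Cox7c at 0.28, itself read off a dim probe set (mean 9.61 in Arid1a d/d and 8.07 in Arid1a f/f). A median without Cox7c is not given here. The median log2 difference was 0.17 in complex I, 0.16 in complex II, 0.17 in complex III and 0.18 in complex V, and -0.04 in complex IV. The 8 Ndufaf genes had a median of 0.29. Without Arid1a f/f replicate 2 these medians were 0.10 in complex I, 0.12 in complex II, 0.12 in complex III, 0.14 in complex V, -0.04 in complex IV and 0.26 in the Ndufaf group. Without the probe sets able to detect several transcripts complex I had 0.06, complex III 0.05 and complex V 0.13. Differences between these medians were not tested. On each array, the median of the members relative to their Arid1a f/f means was 0.10, 0.13 and 0.15 in the Arid1a d/d replicates 1, 2 and 3, against 0.06, -0.07 and 0.01 in the Arid1a f/f replicates. All 3 Arid1a d/d arrays thus lay above all 3 Arid1a f/f arrays, with Arid1a d/d replicate 1 and Arid1a f/f replicate 1 close to each other. The summed intensity of the 90 members was 29969, 31421 and 31329 in Arid1a d/d, against 29697, 27005 and 28259 in Arid1a f/f. For complex IV alone the sums overlapped, at 7647 to 7795 in Arid1a d/d and 7012 to 7838 in Arid1a f/f. In whole tissue, a change in the share of cells that hold a transcript and a change in its amount per cell cannot be told apart.

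**Figure D2:**
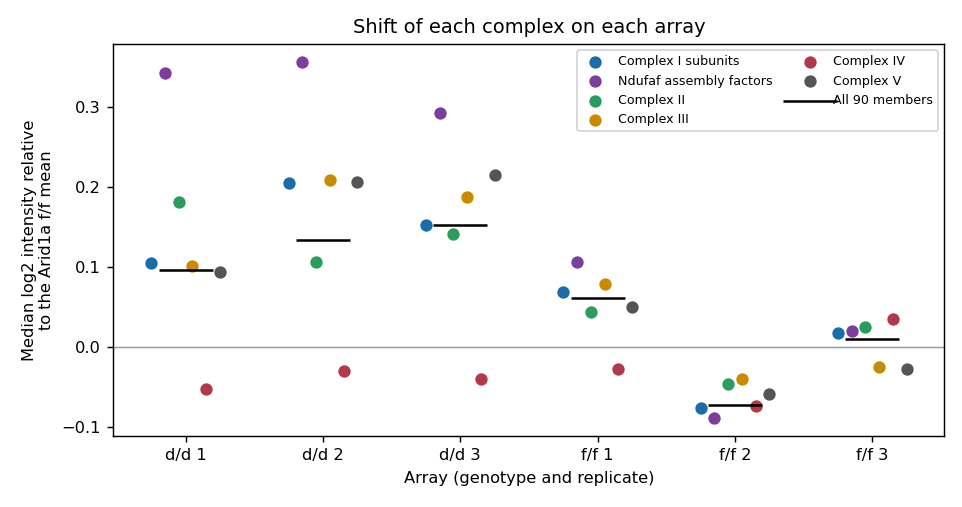
The vertical axis gives the median log2 intensity of each group of members on 1 array relative to the Arid1a f/f mean, and the horizontal axis the array, with Arid1a d/d on the left. The black dash for all 90 members lies at 0.10 to 0.15 on the Arid1a d/d arrays and at -0.07 to 0.06 on the Arid1a f/f arrays, lowest on replicate 2.

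Complex I is the largest enzyme of the chain. It is built from core subunits, some of which carry the flavin and the iron-sulfur clusters, and from many accessory subunits around them. Of its 36 measured subunits, 2 were higher, 0 lower and 34 did not pass the test, and 27 had a value above 0. Ndufb6, an accessory subunit of the membrane arm, had an intensity of 274, 316 and 351 in Arid1a d/d uteri, against 196, 195 and 201 in Arid1a f/f uteri. The groups did not overlap, and the mean was 314 ± 38.4 in Arid1a d/d and 197 ± 3.20 in Arid1a f/f (SD, n = 3 each). The log2 difference was 0.66 (SE 0.11, adjusted p = 0.0164, limma). Its other probe set also lay higher on every Arid1a d/d array, with 0.27 (adjusted p = 0.162, limma). Ndufc2, another accessory subunit of the membrane arm, had 785, 885 and 974 in Arid1a d/d and 639.8, 602 and 655 in Arid1a f/f. All Arid1a d/d arrays were above all Arid1a f/f arrays, with a log2 difference of 0.47 (SE 0.11, adjusted p = 0.0462, limma). Its other 3 probe sets, the last of them dim, had log2 differences of 0.23, 0.17 and -0.06 and did not pass. Ndufb6 lost its call without any 1 of the 3 Arid1a f/f arrays (adjusted p up to 0.0696), and Ndufc2 kept its call only without Arid1a d/d replicate 1 (adjusted p up to 0.157 otherwise).

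**Figure D3:**
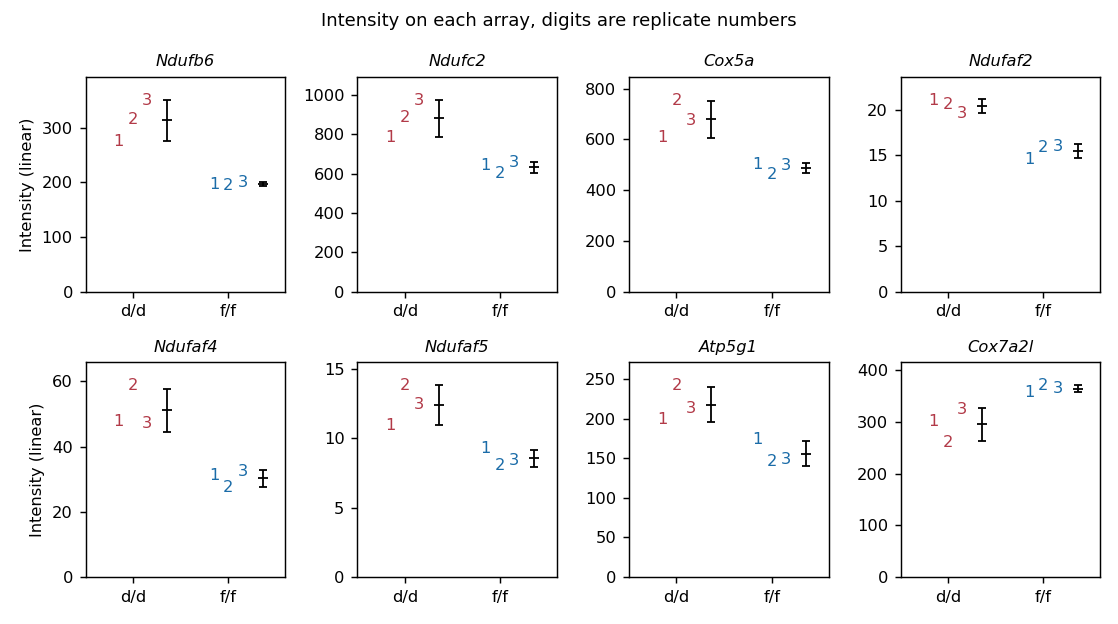
Intensity (linear scale, axis from 0) of 8 members on each array, with digits for the replicate numbers, Arid1a d/d left and Arid1a f/f right, and the mean with its SD as a bar. The 6 members that passed the test and Atp5g1 lie higher on every Arid1a d/d array, and Cox7a2l lies lower on every one.

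The core of complex I gave no call. All 6 nuclear-encoded core subunits measured were above 0, with a median log2 difference of 0.19, and 0 passed. Ndufs7, a core subunit close to the site where ubiquinone binds, had 196, 214 and 223 in Arid1a d/d and 176, 156 and 174 in Arid1a f/f, a log2 difference of 0.32 (adjusted p = 0.129, limma). Its second probe set overlapped between genotypes, at 0.02 (adjusted p = 0.958). Ndufs8, which carries iron-sulfur clusters, had 0.21 (adjusted p = 0.297). Neither gene's brightest probe set overlapped between genotypes. Ndufv1, which binds NADH, had 219, 219 and 212 in Arid1a d/d, against 218, 206 and 206 in Arid1a f/f, a log2 difference of 0.05 with a 95% interval of -0.16 to 0.25. Ndufs1, the largest iron-sulfur subunit, had 64.1, 61.4 and 61.7 in Arid1a d/d and 65.6, 55.1 and 62.4 in Arid1a f/f, a log2 difference of 0.04 (interval -0.20 to 0.27). For both of these genes the groups overlapped. Among the 30 accessory subunits 21 were above 0, with a median of 0.12. Ndufb2 had a log2 difference of 0.39 (adjusted p = 0.0573) and Ndufab1, the mitochondrial acyl carrier protein, 0.32 (adjusted p = 0.0922), both short of the threshold with no overlap between genotypes. Ndufa6 and Ndufv3 went the other way on every array, at -0.19 and -0.22 (adjusted p = 0.315 and 0.328).

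The Ndufaf group held as many calls as the 5 enzymes together. These proteins put complex I together in the mitochondrion and leave it afterwards. Of the 8, 3 were higher, 0 lower and 5 did not pass. Ndufaf4, which acts in early steps of complex I assembly, had 47.6, 58.7 and 46.9 in Arid1a d/d uteri, against 31.1, 27.4 and 32.4 in Arid1a f/f uteri. The lowest Arid1a d/d array was well above the highest Arid1a f/f array. Its log2 difference of 0.75 (SE 0.12, adjusted p = 0.0145, limma) had the highest value among the 90 members, and a second probe set gave 0.66 (adjusted p = 0.0207). Ndufaf5, known in human cells to modify the core subunit Ndufs7, had 11.0, 13.8 and 12.4 in Arid1a d/d and 9.24, 8.03 and 8.43 in Arid1a f/f, with no overlap and a log2 difference of 0.53 (SE 0.12, adjusted p = 0.0389, limma). Its 1 probe set was dim, so the size of this difference is uncertain. Ndufaf2, a paralog of the subunit Ndufa12 that binds a late assembly intermediate, had 21.1, 20.6 and 19.6 in Arid1a d/d, against 14.6, 15.8 and 15.9 in Arid1a f/f. These arrays were also fully apart, with a log2 difference of 0.40 (SE 0.095, adjusted p = 0.0478, limma). Ndufaf3, which works together with Ndufaf4, stood on the other side, at 17.99, 11.5 and 14.9 in Arid1a d/d and 21.4, 18.7 and 19.9 in Arid1a f/f, and its log2 difference of -0.45 did not pass (adjusted p = 0.163). With 1 array left out at a time, Ndufaf4 failed only without Arid1a f/f replicate 2 (adjusted p = 0.0648), while Ndufaf5 passed in 1 of 6 fits and Ndufaf2 in 0, with adjusted p up to 0.140 and 0.139.

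Promoters of 4 of the 6 genes that passed the test are printed here, because binding sites of NRF1, of the ETS factor GABPA, of YY1, of estrogen-related receptors (ERR) and of SP1 are known from promoters of respiratory chain genes. The sequences come from the RefSeq annotation of GRCm38.p6 and run 5′ to 3′ in the direction of the gene, with 250 bases before its start and 30 after. Capitals mark exact matches, on either strand, to GCGCATGCGC (NRF1, which reads the same on both strands), CCGGAAG (GABPA), AAGATGGC (YY1), TCAAGGTCA (ERR) or GGGCGG (SP1). Ndufaf4 lies at chr4:24897833-24898112 on the plus strand, Ndufaf5 at chr2:140170396-140170675 on the plus strand, Ndufb6 at chr4:40279392-40279671 on the minus strand and Ndufc2 at chr7:97399753-97400032 on the plus strand.
Ndufaf4: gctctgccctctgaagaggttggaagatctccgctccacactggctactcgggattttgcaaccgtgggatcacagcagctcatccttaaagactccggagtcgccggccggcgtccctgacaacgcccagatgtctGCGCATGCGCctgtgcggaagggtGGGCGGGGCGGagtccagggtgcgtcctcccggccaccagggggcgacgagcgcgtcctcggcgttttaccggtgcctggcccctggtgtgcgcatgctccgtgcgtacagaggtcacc
Ndufaf5: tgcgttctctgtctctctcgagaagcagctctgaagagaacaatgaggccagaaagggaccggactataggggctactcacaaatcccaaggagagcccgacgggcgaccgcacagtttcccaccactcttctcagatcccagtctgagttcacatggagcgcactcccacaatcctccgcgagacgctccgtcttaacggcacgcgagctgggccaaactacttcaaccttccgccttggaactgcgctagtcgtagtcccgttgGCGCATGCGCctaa
Ndufb6: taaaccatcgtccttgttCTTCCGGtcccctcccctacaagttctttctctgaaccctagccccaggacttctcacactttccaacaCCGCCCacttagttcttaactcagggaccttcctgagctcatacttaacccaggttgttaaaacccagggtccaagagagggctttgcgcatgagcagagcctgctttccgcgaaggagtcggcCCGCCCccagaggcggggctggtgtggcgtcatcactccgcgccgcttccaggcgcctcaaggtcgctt
Ndufc2: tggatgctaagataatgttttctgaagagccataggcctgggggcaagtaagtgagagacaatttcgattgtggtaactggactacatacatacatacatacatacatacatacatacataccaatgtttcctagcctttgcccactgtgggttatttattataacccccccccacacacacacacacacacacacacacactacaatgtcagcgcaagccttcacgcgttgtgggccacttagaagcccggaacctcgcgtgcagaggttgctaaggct

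The assembly factor genes Ndufaf4 and Ndufaf5 each held the NRF1 letters, Ndufaf4 at -113 from its start and Ndufaf5 at +17, and Ndufaf4 also held 2 overlapping SP1 matches. Ndufb6 held the GABPA letters and 2 SP1 matches on the opposite strand, and Ndufc2 held none of the 5 motifs. Cox5a and Ndufaf2, not printed, held SP1 letters alone. A promoter could be matched for 74 of the 90 members, with 79 windows of 300 bases in all, and the search ran to 50 bases after the start. The NRF1 letters were found in 6 of these windows (7.59%), against 0.971% of all 32851 promoter windows, in Ndufaf4, Ndufaf5, Atp5k, Cox6a1, Uqcrc1 and Atp5g2. These 6 genes had log2 differences of 0.75, 0.53, 0.24, -0.04, 0.03 and -0.06. The GABPA letters were found in 19 windows (24.1%, against 8.86% of all windows), those of YY1 in 10 (12.7%, against 2.75%), those of ERR in 2 (2.53%, against 0.423%) and those of SP1 in 36 (45.6%, against 35.7%). A match to letters is a description of the sequence, and no binding was measured here.

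Complex II, succinate dehydrogenase, works in both the respiratory chain and the tricarboxylic acid cycle. None of its 4 subunits passed the test, with 1 higher at an unadjusted p under 0.05. Sdha, the catalytic flavoprotein, had 199.9, 203 and 187 in Arid1a d/d, against 208, 202 and 212 in Arid1a f/f, with overlap and a log2 difference of -0.08 (interval -0.29 to 0.13). Sdhb, the iron-sulfur subunit, had 212, 187 and 196 in Arid1a d/d and 189.5, 174 and 167 in Arid1a f/f, also with overlap, and a log2 difference of 0.17 (adjusted p = 0.455, limma). Both membrane anchors lay higher on every Arid1a d/d array, Sdhc at 0.15 and Sdhd at 0.29 (adjusted p = 0.493 and 0.160), although a dimmer probe set of Sdhc overlapped at -0.09. A second, dimmer probe set of Sdhd passed at 0.61 (adjusted p = 0.0194).

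Complex III, the cytochrome bc1 complex, also had 0 of 8 subunits past the test, with 3 higher and 1 lower at an unadjusted p under 0.05. Uqcrb, which binds near the ubiquinone site, had 1803, 2187 and 2034 in Arid1a d/d, against 1754, 1567 and 1630.3 in Arid1a f/f. The groups did not overlap, although Arid1a d/d replicate 1 lay close to Arid1a f/f replicate 1, and the log2 difference was 0.28 (adjusted p = 0.208, limma). Its second probe set passed at 0.52 (adjusted p = 0.0267). Uqcrq and the core protein gene Uqcrc2 had 0.29 and 0.26, likewise without overlap, but the second Uqcrc2 probe set overlapped, with a log2 difference of -0.05 (adjusted p = 0.854). Of the other 2 named for their roles, the core protein gene Uqcrc1 had 0.03 (interval -0.19 to 0.25) and Uqcrfs1, the Rieske iron-sulfur protein, had -0.09 (interval -0.32 to 0.14), and both overlapped. Uqcrh, the hinge protein that helps to hold cytochrome c1, lay on the other side. It had 586, 570.2 and 644 in Arid1a d/d and 699.9, 737 and 707 in Arid1a f/f, lower on every Arid1a d/d array, with a log2 difference of -0.25 that did not pass (adjusted p = 0.197).

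Complex IV, cytochrome c oxidase, was the only one of the 5 enzymes with a median below 0. Of its 17 genes 1 was higher, 0 were lower and 7 were above 0. Without its tissue-restricted forms, most of them dim, 6 of the other 10 genes were above 0, with a median of 0.05. Among those above 0 was Cox7c, which was dim as well. Cox5a, a subunit on the matrix side, had 609, 755 and 674 in Arid1a d/d uteri, against 500.1, 463 and 499 in Arid1a f/f uteri. Every Arid1a d/d array exceeded every Arid1a f/f array, with a mean of 679 ± 73.1 in Arid1a d/d and 487 ± 21.3 in Arid1a f/f (SD, n = 3 each) and a log2 difference of 0.47 (SE 0.11, adjusted p = 0.0461, limma). Another Cox5a probe set passed at 0.49 (adjusted p = 0.0424) and the third had 0.30 (adjusted p = 0.210). The call of the brightest probe set held only without Arid1a d/d replicate 1, and elsewhere the adjusted p reached 0.157. Cox5b, another subunit on the matrix side, had 1037, 1086 and 1060.3 in Arid1a d/d and 1057, 927 and 996 in Arid1a f/f, with overlap and a log2 difference of 0.10.

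Several complex IV genes come in tissue-specific forms. In this tissue, 8 forms of restricted pattern were measured, namely Cox4i2, Cox6a2, Cox6b2, Cox7a1, Cox7b2, Cox8b and Cox8c together with Ndufa4l2, and their median log2 difference was -0.22, with 1 above 0, 0 past the test and 7 overlapping between genotypes. The 7 others apart from Cox6b2 were dim, between 1.66 and 8.68 on every array, so their differences are uncertain in size. Cox6b2, known from testis, had 21.0, 9.28 and 12.5 in Arid1a d/d and 27.0, 21.4 and 17.9 in Arid1a f/f. Arid1a d/d replicate 1 overlapped the Arid1a f/f arrays, and the log2 difference of -0.70 did not pass (adjusted p = 0.216, limma). Without that array it was -1.02 and passed (adjusted p = 0.0390). The 10 other complex IV genes, the dim Cox7c among them, had a median of 0.05. Of the widely expressed partners, Cox6a1 had -0.04, Cox8a -0.01, Cox6b1 0.15 and Cox7a2 0.24, and 0 passed. Ndufa4, counted by its symbol with complex I although its protein is known as a subunit of complex IV, had 491, 525 and 515 in Arid1a d/d, against 472, 372 and 418 in Arid1a f/f. These did not overlap, and the log2 difference was 0.29 (adjusted p = 0.214). Its relative Ndufa4l2 had -0.32 (adjusted p = 0.237).

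The ubiquitous Cox4i1, known for binding ATP, had 809.9, 768 and 798 in Arid1a d/d, against 834, 861 and 897 in Arid1a f/f. All Arid1a d/d arrays lay below all Arid1a f/f arrays by a small step, -0.12 (adjusted p = 0.550, limma). Cox7a2l, which links complex III with complex IV in supercomplexes, had 301, 261 and 324 in Arid1a d/d and 357, 371 and 364 in Arid1a f/f, with a log2 difference of -0.31 (adjusted p = 0.166). None of its 3 probe sets overlapped between genotypes, and the other 2 had -0.41 and -0.44 (adjusted p = 0.130 and 0.0948). Cox6c had 1112, 933 and 1223 in Arid1a d/d and 1159.6, 1047 and 1044 in Arid1a f/f, with overlap, a log2 difference of 0.00 and an interval of -0.28 to 0.28. Its other, less bright probe set lay higher on every Arid1a d/d array, with a mean of 665 in Arid1a d/d and 514 in Arid1a f/f and a log2 difference of 0.37 (adjusted p = 0.0838).

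Complex V makes ATP in its F1 head, while a ring of c subunits in the membrane turns a central stalk inside that head. Of its 17 genes 0 passed the test, 15 were above 0 and 5 were higher at an unadjusted p under 0.05. The differences were uneven within the enzyme. The 5 genes of the F1 part, which is the head with the central stalk, had a median log2 difference of 0.03. The 9 genes of the peripheral stalk and of membrane parts other than the c ring were all above 0. Their median was 0.22, with no overlap between genotypes for 7. The catalytic subunit gene Atp5b had 566, 628 and 589 in Arid1a d/d, against 592, 553 and 539.7 in Arid1a f/f, and Atp5a1 had 497, 562 and 525 in Arid1a d/d, against 534, 494 and 551 in Arid1a f/f. Both overlapped, with log2 differences of 0.08 (interval -0.14 to 0.30) and 0.00 (interval -0.22 to 0.23). Among the membrane part genes, Atp5md had 124, 146 and 175 in Arid1a d/d and 118, 109 and 106 in Arid1a f/f, a log2 difference of 0.41 (adjusted p = 0.137, limma). Atp5j2 had 0.22 and the peripheral stalk genes Atp5j and Atp5o had 0.26 each (adjusted p = 0.241, 0.162 and 0.180, limma).

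The c subunit is encoded by 3 genes whose mature proteins are the same, and each has its own probe set here. Atp5g1 had 199, 242 and 213 in Arid1a d/d uteri, against 174, 146 and 149 in Arid1a f/f uteri, with no overlap and a log2 difference of 0.48 (SE 0.12), just short of the threshold (adjusted p = 0.0554, limma). Its second probe set was dim and had -0.06. Atp5g3 had 1033, 1117 and 1026 in Arid1a d/d and 1047, 887 and 976 in Arid1a f/f, with overlap and a log2 difference of 0.13. Atp5g2 had 279, 288 and 284 in Arid1a d/d, against 307, 293 and 289.9 in Arid1a f/f. The genotypes did not overlap, with Arid1a d/d below, but the log2 difference was -0.06 alone (interval -0.27 to 0.14). Differences between the 3 genes were not tested.

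Probe sets that the choice by brightness left aside gave a second reading for 51 of the 90 genes, while 39 had 1 probe set. Of the 89 other probe sets, 70 had the same sign as the chosen one, and 6 were higher and 0 lower in limma at an adjusted p under 0.05. Those 6 belonged to Atp5o (0.77, adjusted p = 0.00665), Atp5k (0.55, adjusted p = 0.0275), Sdhd, Uqcrb, Cox5a and Ndufaf4. In Atp5o, Atp5k, Sdhd and Uqcrb the chosen probe set had 0.24 to 0.29 and did not pass, so their size depends on the probe set. A further 10 probe sets carry the name of a member together with another gene or a pseudogene and were not counted. One of these, shared by Ndufab1 and its pseudogene Ndufab1-ps, had a log2 difference of 0.67 (adjusted p = 0.0146). The gene Ndufb4 was read off a dim probe set (2.19 in Arid1a d/d and 2.18 in Arid1a f/f), while both probe sets that it shares with its copies Ndufb4b and Ndufb4c had 0.24 and 0.28 (adjusted p = 0.261 and 0.174).

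**Figure D4:**
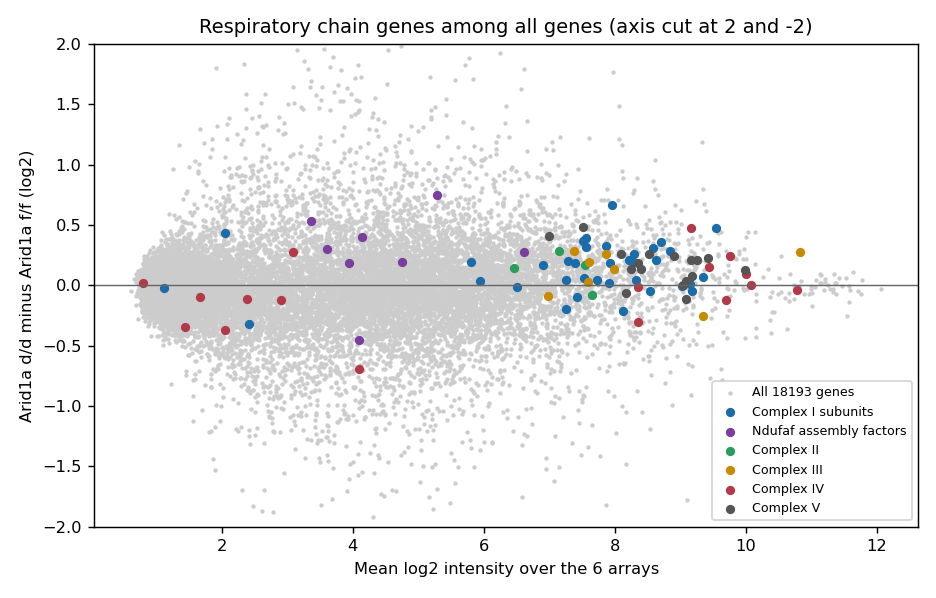
Mean log2 intensity over the 6 arrays (horizontal) against the difference between genotypes (vertical, Arid1a d/d minus Arid1a f/f, log2), with all 18193 genes in grey and the members in colour. The vertical axis stops at 2 and -2, beyond which lie 53 genes and 0 members, and most members sit to the right, a little above 0.

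Genes that work with the respiratory chain were read in the same fit. Of 40 further assembly factors, 3 were higher and 1 lower, with a median log2 difference of 0.15. Cox10, which makes heme for complex IV, had 0.54 (adjusted p = 0.0420), Tmem126a, an assembly factor of complex I, had 0.49 (adjusted p = 0.0254) and Timmdc1, another one, had 0.42 (adjusted p = 0.0460). Surf1, which helps to assemble complex IV, was lower at -0.43 (adjusted p = 0.0319). Cytochrome c, the carrier between complexes III and IV, had a larger log2 difference than any member. Its gene Cycs had 394, 540.0 and 402 in Arid1a d/d uteri, against 244, 255 and 218 in Arid1a f/f uteri, with no overlap and a log2 difference of 0.89 (SE 0.14, adjusted p = 0.0129, limma). Cycs was read off the brightest of its 4 probe sets, of a kind able to detect several transcripts. Other probe sets of Cycs and of the genes in these lists are not given here. Among the 16 genes of electron carriers and other ubiquinone reductases 1 was higher and 1, Coq8a of ubiquinone synthesis, was lower (-0.85, adjusted p = 0.0201). Of 10 listed proteins of these complexes under other symbols 5 were measured and 0 passed, with Higd1a at 0.69 (adjusted p = 0.0639), Cyc1, which is cytochrome c1, at 0.30 and the ATP synthase inhibitor Atpif1 at 0.30. Of 26 listed symbols encoded by mitochondrial DNA, 1 was named on the arrays. This was ND5 of complex I, with 1011, 962 and 812 in Arid1a d/d, against 736, 706 and 601 in Arid1a f/f, no overlap and a log2 difference of 0.45 that did not pass (adjusted p = 0.0858).

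Other mitochondrial machinery was read as well. Of 29 import and inner membrane genes, 6 were higher and 0 lower (17 and 0 at an unadjusted p under 0.05), with a median of 0.31, among them the pore gene Tomm40 of the outer membrane (0.78, adjusted p = 0.0339) and Timm23 of the inner membrane translocase, which had 189, 231 and 210.5 in Arid1a d/d and 136, 136 and 135 in Arid1a f/f (0.62, adjusted p = 0.0155). Of 76 mitochondrial ribosomal protein genes, 5 were higher and 0 lower (31 and 0 unadjusted), with a median of 0.23. Mrps22 of the small subunit, with 38.2, 41.8 and 38.7 in Arid1a d/d and 24.7, 24.3 and 22.3 in Arid1a f/f, had 0.73 (adjusted p = 0.00693). In the tricarboxylic acid cycle 1 of 18 genes was higher and 0 lower, with a median of 0.08, and that gene was Idh3a of isocitrate dehydrogenase (0.82, adjusted p = 0.0194). Among 23 genes of mitochondrial biogenesis and DNA upkeep 0 were higher and 1 was lower, Polg2 of the mitochondrial DNA polymerase (-0.76, adjusted p = 0.0150). Tfam, the packaging factor of mitochondrial DNA, had 0.40 and did not pass (adjusted p = 0.0824). The regulators Ppargc1a, Nrf1 and Gabpa had 0.15, 0.25 and -0.04, all with overlapping genotypes. Glycolysis genes were split, with 2 of 18 higher (Pgam1 at 0.53 and Tpi1 at 0.51) and 3 lower. These were Pfkp at -0.87, Pdk4, which switches pyruvate away from mitochondria, at -0.68, and Aldoc at -0.46. Pdk4 had means of 3.03 in Arid1a d/d and 4.86 in Arid1a f/f, and Aldoc 2.51 and 3.46. Both were dim, below the median of all probe sets (3.12) in Arid1a d/d, so their size is uncertain. Without Arid1a f/f replicate 2 the counts were 0 for import, 1 for the ribosome (Mrps22), 0 for further assembly factors, 0 for the tricarboxylic acid cycle and 0 for glycolysis, with medians of 0.27, 0.19, 0.11, 0.06 and -0.04. With any other array left out, 0 to 7 import genes and 2 to 6 ribosomal protein genes passed. Cycs kept its call in 5 of 6 fits with an array left out, lost without Arid1a f/f replicate 3, and Mrps22 in 6 of 6. Pfkp did not pass without Arid1a f/f replicate 2, nor Timm23 without Arid1a f/f replicate 2 or 3, nor Polg2 without Arid1a f/f replicate 1 or 3, nor Idh3a without any 1 Arid1a f/f array. Pgam1 kept its call in 3 of the 6 fits, Coq8a and Tpi1 in 2, Cox10, Tmem126a, Tomm40 and Pdk4 in 1, and Timmdc1 and Surf1 in 0.

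**Figure D5:**
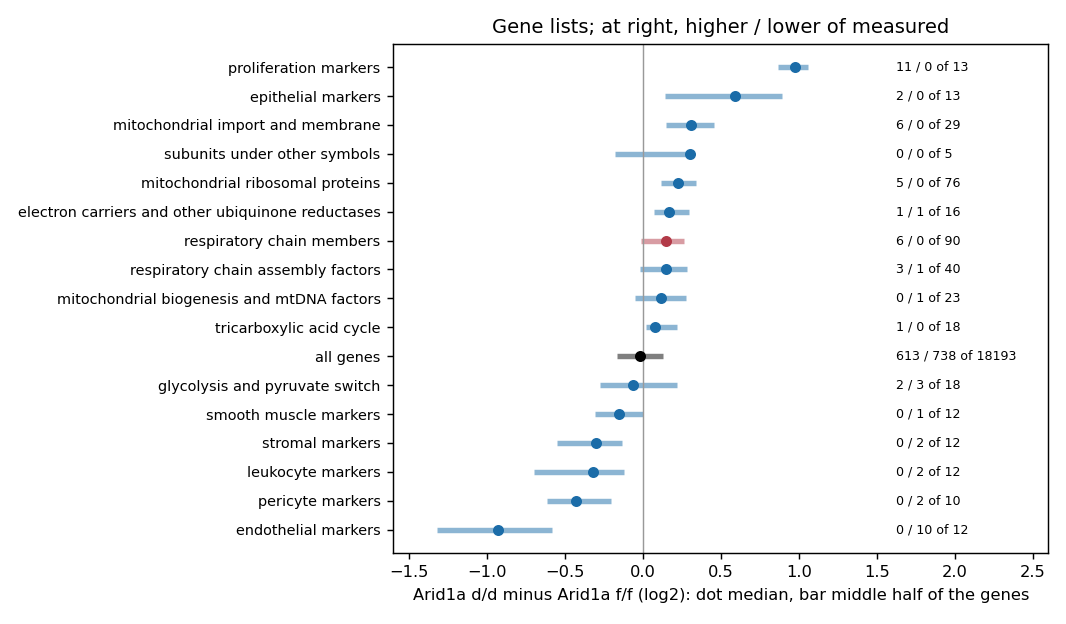
Dots give the median and bars the quartiles of the difference between genotypes (Arid1a d/d minus Arid1a f/f, log2) for the members (red), for other gene lists (blue) and for all genes (black), and the numbers at right give how many genes were higher and lower of those measured. The members, at 0.15, lie between the import genes at 0.31 and the tricarboxylic acid cycle at 0.08, with proliferation markers at 0.98 and endothelial markers at -0.93 at the ends.

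Markers of cell types and of proliferation moved between the same samples, and their part in the differences of the respiratory chain genes was not tested. All 13 proliferation markers were above 0, 11 passed as higher, and their summed intensity was 1491 to 1847 in Arid1a d/d, against 761 to 1186 in Arid1a f/f. Without Arid1a f/f replicate 2, 0 of them passed, with a median of 0.85 against 0.98 over all arrays, and 1 to 13 passed with any other array left out. Of 13 epithelial markers 2 were higher and 0 lower, with a median of 0.59 and sums of 1253 to 2414 in Arid1a d/d and 1193 to 1280 in Arid1a f/f (0.64 and 0 called without Arid1a f/f replicate 2). The epithelial median was 0.36 without Arid1a d/d replicate 2. That array was the highest of the 6 for 29 of the 90 members and for 18.6% of all genes. Endothelial markers fell in 10 of 12, with sums of 254 to 311 in Arid1a d/d and 569 to 588 in Arid1a f/f, and 6 or 7 of them passed without Arid1a f/f replicate 1 or any 1 Arid1a d/d array and 5 without Arid1a f/f replicate 2 or 3. Pericyte markers were lower in 2 of 10 (Rgs5 at -1.78 and Notch3 at -0.81, both also with any 1 array left out), with sums of 728 to 826 in Arid1a d/d and 1538 to 1848 in Arid1a f/f. Stromal markers were lower in 2 of 12, leukocyte markers in 2 of 12, smooth muscle markers in 1 of 12 and striated muscle markers in 1 of 13, with 0 higher in each of these lists and 0 to 2 lower with any 1 array left out. Their sums were 9135 to 10814 in Arid1a d/d and 11482 to 12778 in Arid1a f/f for stroma, 475 to 600.4 in Arid1a d/d and 623 to 996 in Arid1a f/f for leukocytes, and 8567 to 10419 in Arid1a d/d and 9566 to 10889 in Arid1a f/f for smooth muscle. The striated muscle list had a median of 0.00 and sums of 310.5 to 548 in Arid1a d/d, against 262 to 465 in Arid1a f/f. Brown fat markers (6 genes, sums of 87.2 to 214 in Arid1a d/d and 42.6 to 118 in Arid1a f/f) and erythroid markers (3 genes, at most 8.26 in sum on any array) had 0 calls. Of 6 genes that mark the uterus, Esr1 was lower at -0.45, in none of the fits with an array left out, and 5 did not pass. The summed level of these 6 genes was 1079.9 to 1308 in Arid1a d/d, against 1325 to 1455 in Arid1a f/f.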

How the data were processed

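Whole uterus RNA was measured on Affymetrix arrays, in 3 samples of Arid1a d/d and 3 of Arid1a f/f. The deposited table holds intensity values on a linear scale for 45037 probe sets, which the authors made with RMA (version not given) and global scaling. The sources used here do not tell how this table was rescaled afterwards. The platform annotation gave the gene names (34945 probe sets with 1 gene, 932 with several and left out, 9160 unnamed here).

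Intensities were log2-transformed and compared with limma 3.58.1 (lmFit and eBayes, two-sided) in R 4.3.3, with Benjamini-Hochberg adjustment across the table and a threshold of 0.05. No filter was set on dim probe sets. The number of arrays limits the precision. Counts and medians of gene lists are descriptions, and those over all genes are given once, beside the 90 members. The members and the lists were chosen with earlier results of these data known. Genes were named by rule, as each complex's members past the test or else its 2 brightest, the tissue-restricted isoforms with their partners, the catalytic subunits, and up to 4 genes past the test per list. Members and list genes named besides these were chosen after their values were seen. Simulated data with known changes served to check the fit. Alternatives were a replicate block, other scalings, a dim filter, other eBayes options, array weights, the methods' t-test, other thresholds and probe sets, and each array left out. Promoters came from RefSeq (GRCm38.p6), and the deposited table names no genome build.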

Additional observations from a re-analysis of the deposited data

How the results depend on the processing

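The number of members higher, 6 over all arrays, was 2 with the replicate number as a block, 0 with the methods' t-test after Benjamini-Hochberg adjustment (29 higher and 5 lower unadjusted), 0 at an adjusted p under 0.01, 2 when a 1.5-fold difference was also asked for and 2 without probe sets able to detect several transcripts (72 members left). It was 4 after quantile normalization, 4 after cyclic loess (chosen after seeing the data), 7 after median centring and 8 with the mean of probe sets, with 0 lower in each. With each array left out it was 0 to 5, with 0 to 1 lower. The share of all genes passing in each of these settings is not given here, so these counts have no background beside them. The cause of these changes was not tested. No label says that a replicate number pairs the samples. Same-numbered arrays' deviations correlated at -0.00364, 0.0467 and 0.143, and not every array correlated best with its own number.

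The median over all members was 0.072 without the probe sets able to detect several transcripts, where complex I had 0.060 and complex III 0.049. Complex II had 0.10 after quantile normalization and 0.11 with the mean of probe sets and after cyclic loess, and complex III had 0.067 with the mean of probe sets. The sign of each median held in every setting run, and with each array left out the median of all members was 0.087 to 0.19 and that of complex IV -0.088 to -0.013. The sign for complex IV did depend on the genes counted. Over all arrays its median was 0.05 for the 10 genes other than its tissue-restricted forms. Several members changed sign, most of them near 0. After quantile normalization Atp5a1 had -0.043, Cox6c -0.030, Ndufv1 -0.029 and Uqcrc1 -0.040. After cyclic loess Atp5a1 had -0.062, Cox6c -0.075, Ndufv1 -0.010 and Uqcrc1 -0.028. Without the probe sets able to detect several transcripts Atp5a1 had -0.048, Atp5g1 -0.056 and Ndufv1 -0.043, and with the mean of probe sets Cox8a had 0.10 and Sdha 0.045. With each array left out, Atp5a1 spanned -0.042 to 0.048, Cox4i2 -0.29 to 0.016, Cox6a1 -0.089 to 0.028, Cox6c -0.088 to 0.11, Cox7b2 -0.013 to 0.061, Cox8a -0.094 to 0.042, Ndufs1 -0.036 to 0.090 and Uqcrc1 -0.013 to 0.072. Over the 36 members named by rule, other settings gave the same direction and side of the threshold in 440 of 497 cases, and leaving out an array in 173 of 216. Only 6 of these members had passed over all arrays, so most of these cases are differences that stayed short of the threshold. In the other settings Ndufaf4 kept its call in 12 of 14, Ndufb6 in 11 of 14 and Ndufaf5 in 8 of 13. There, Cox5a and Ndufaf2 kept theirs in 7 of 14 and Ndufc2 in 6 of 14. With each array left out, Ndufaf4 kept its call in 5 of 6 fits and Ndufb6 in 3. Ndufaf5, Cox5a and Ndufc2 did so in 1 and Ndufaf2 in 0. Ndufb4, Cox4i2, Cox7a1 and Cox7b2 had a mean intensity below 3.12, the median of all probe sets, in at least 1 genotype, so their size is uncertain. Ndufb1 (mean 4.85 in Arid1a d/d and 3.61 in Arid1a f/f) and Cox7c (9.61 and 8.07, SE 0.27) were also read off dim probe sets.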
